A study of Homo sapiens with 6 samples.

Results

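The 10 genes described here stand at the core of nuclear factor kappa B (NF-kB) signaling and were chosen by symbol from the 12982 genes of the deposited expression table. They are the 5 genes of the subunits (NFKB1, NFKB2, RELA, RELB and REL), 3 genes of IkB inhibitors (NFKBIA, NFKBIB and NFKBIE) and 2 feedback genes (TNFAIP3 and BIRC3). All 10 were found in the table. The cells were SW480, an established human colorectal adenocarcinoma line, labelled WT in genotype and grown in DMEM with FBS and L-Glutamine. They received either the vehicle DMSO or the mitochondria-targeting fluorescent probe MPM-1, labelled WT4, and RNA was taken after 24 h. There were 3 libraries per treatment, and the concentration of MPM-1 behind these libraries is not given in the sources used here. No label states whether the libraries of a treatment came from separate cultures, so the p-values measure the spread between these samples, which may be technical.

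The libraries held 32095456 to 40269820 counts in DMSO and 31733667 to 35403841 counts after MPM-1. Where a library lists 0 for a gene, a level of up to 3 counts remains possible, which is 0.0695 to 0.0985 CPM (the count of a gene divided by the library size and given on a common scale), and this limit covers counting error only. All CPM here are scaled with edgeR's TMM factors, which were 1.03 to 1.07 in DMSO and 0.930 to 0.969 after MPM-1. Of the markers for the labelled cell type, 10 of 10 epithelial genes were in the table, with a summed level of 8620 to 10106 CPM in DMSO and 12709 to 14327 CPM after MPM-1. By the test given below, 5 of the 10 rose, 1 did not pass and 4 fell, beside 27.7% of all genes that rose and 28.8% that fell. Among those that rose were the keratins KRT8, KRT18 and KRT19, which made up most of the sum. The 4 that fell were the intestinal markers CDX2, KRT20, CDX1 and VIL1, with log2 fold changes of -2.20, -2.03, -0.98 and -0.88. Of 14 immune, stromal and endothelial markers, 4 were among the genes analysed, with a summed level of 72.6 to 99.4 CPM in DMSO and 143 to 157 CPM after MPM-1. Most of that sum was CD68, a lysosomal protein gene, and the other 3 markers summed to 13.4 to 15.3 CPM and 4.04 to 7.80 CPM. The leukocyte marker PTPRC was not among the genes analysed. The part of these markers in the results was not tested.

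NF-kB is a family of transcription factors that work as dimers. In resting cells IkB proteins hold the dimers in the cytoplasm, and the IKK kinase complex marks the IkB proteins for destruction so that the dimers enter the nucleus. In the canonical pathway the main dimer joins RELA with p50, which is made from the NFKB1 product, whereas in the noncanonical pathway RELB pairs with p52, made from the NFKB2 product after the kinase NIK becomes stable. Several genes switched on by NF-kB encode its own brakes, among them NFKBIA and TNFAIP3, and in the intestinal epithelium the pathway is known for linking inflammation to cell survival.

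The dimers bind short DNA sites, so the promoters of the 10 genes were searched for the letters GGGNNTTTCC on both strands, a search chosen after the expression values had been seen. The windows ran from 250 bases before to 50 bases after each annotated start (RefSeq, GRCh38.p14). They were found for 8 of the 10 genes, with 13 windows in all, and RELB and NFKBIE had no entry. The letters occurred in 8 of the 13 windows and in 7 of the 8 genes, while over all genes 1.91% of 35116 windows and 2.33% of 27305 genes held them. As the genes were chosen as core and feedback genes of NF-kB, that share rests on the choice and is no result about MPM-1. RELA was the gene without a match to these letters. Other forms of the site and bases outside the windows were not searched, so a gene without a match may still hold a site. The 30 bases around each match are shown to let the sites be compared between genes, 5′ to 3′ on the strand of the gene, with the match in capitals. Numbered starts are alternative annotated starts of a gene, and the 2 TNFAIP3 stretches overlap in part.
NFKB1 (chr4:102501300-102501329, plus strand): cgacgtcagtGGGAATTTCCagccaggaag
NFKB2, start 2 (chr10:102394490-102394519, plus strand): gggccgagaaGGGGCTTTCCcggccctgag
NFKB2, start 3 (chr10:102395674-102395703, plus strand): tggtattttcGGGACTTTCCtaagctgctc
REL (chr2:60881518-60881547, plus strand): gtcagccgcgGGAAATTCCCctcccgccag
NFKBIA (chr14:35404811-35404840, minus strand): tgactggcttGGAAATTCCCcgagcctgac
NFKBIB, start 2 (chr19:38899931-38899960, plus strand): gggcgtggtgGGGAATTTCCcgcagggcgg
TNFAIP3, outer site (chr6:137867182-137867211, plus strand): acgtgactttGGAAAGTCCCgtggaaatcc
TNFAIP3, inner site (chr6:137867194-137867223, plus strand): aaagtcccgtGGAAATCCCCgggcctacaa
BIRC3 (chr11:102317275-102317304, plus strand): tttgggtcatGGAAATCCCCgagtgggttt

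Read on the strand that carries the motif, the match was GGGAATTTCC in NFKB1, REL, NFKBIA and NFKBIB, the same 10 letters in all 4 genes. It was GGGACTTTCC at NFKB2 start 3 and at the outer TNFAIP3 site, GGGGATTTCC at the inner TNFAIP3 site and in BIRC3, and GGGGCTTTCC at NFKB2 start 2. The matches began 21 to 81 bases before the RefSeq start of their window, except in BIRC3, where the match began 199 bases before it. The gene positions printed below are from GENCODE, whose starts can differ. By those positions the matches in NFKB2, REL, NFKBIB and TNFAIP3 lie inside the gene. Among the tested genes with a window, the letters were present in 3.41% of those called higher after MPM-1 by the DEG rule given below, in 3.22% of those called lower and in 2.67% of those that did not pass the test. Of all tested genes with a window, 2.85% held them. Among the pathway genes listed here that had a window, the letters were present in 6 of 26 target genes, 4 of 21 adaptors and ubiquitin ligases and 1 of 12 receptors and ligands. Of 11 cofactors 1 held them, and of 12 genes of the IKK and upstream kinases and their partners 0 did. Of the 6 target genes, ELF3 and IL32 rose after MPM-1, CXCL1 and CXCL3 fell, and CXCL2 and TAP1 did not pass the test.

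**Figure D1:**
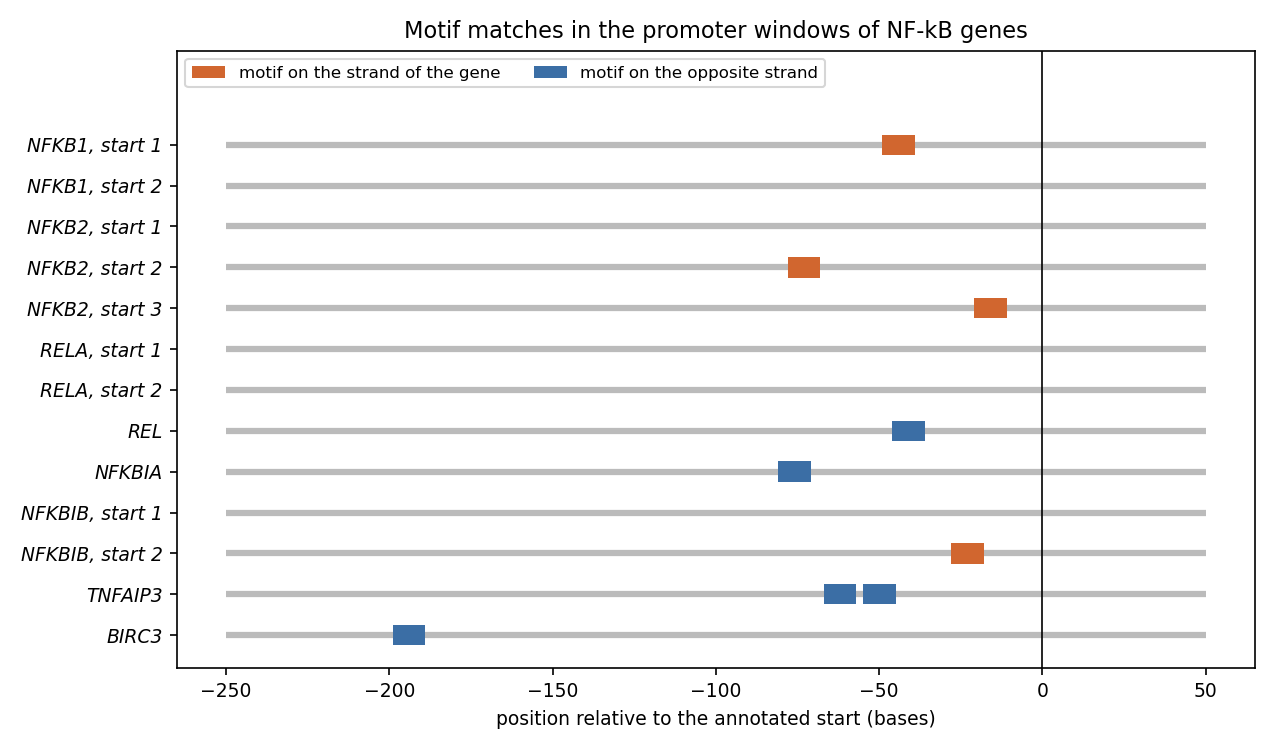
Position of the motif matches in the 13 promoter windows of 8 NF-kB genes, in bases relative to the annotated start at 0, with matches on the strand of the gene in orange and on the opposite strand in blue. Matches lie 21 to 81 bases before the start in 6 genes and 199 bases before it in BIRC3, and both RELA windows are empty.

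To determine how MPM-1 changed these genes, the deposited counts were compared between treatments in edgeR, by its quasi-likelihood test over all genes of the table. A gene passed at a Benjamini-Hochberg adjusted p under 0.05, and it was called a DEG at an adjusted p under 0.01 with a log2 fold change of 1 or more, or of -1 or less. After MPM-1, 7 of the 10 genes rose, which compares with 27.7% of all genes tested, and 1 fell, which compares with 28.8%. The 7 were RELB, NFKBIB, TNFAIP3, BIRC3, NFKB2, NFKBIA and RELA, and the 1 that fell was NFKB1. The other two, REL and NFKBIE, did not pass. RELB, NFKBIB and BIRC3 were DEGs, all higher, against 5.58% of all genes called higher and 8.75% called lower by that rule. BIRC3 was no DEG without DMSO replicate 1, DMSO replicate 2, MPM-1 replicate 2 or MPM-1 replicate 3 (adjusted p = 0.0120, 0.0120, 0.0120 and 0.0141), which left 2 DEGs in each of these fits. In 8 of the 10 genes the MPM-1 and DMSO libraries did not overlap, as was so for 64.3% of all genes. The median log2 fold change was 0.63 over the 10 genes and -0.026 over all genes. As these are cultures measured in bulk, a change in every cell and a change in the share of cells that express a gene cannot be told apart.

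**Figure D2:**
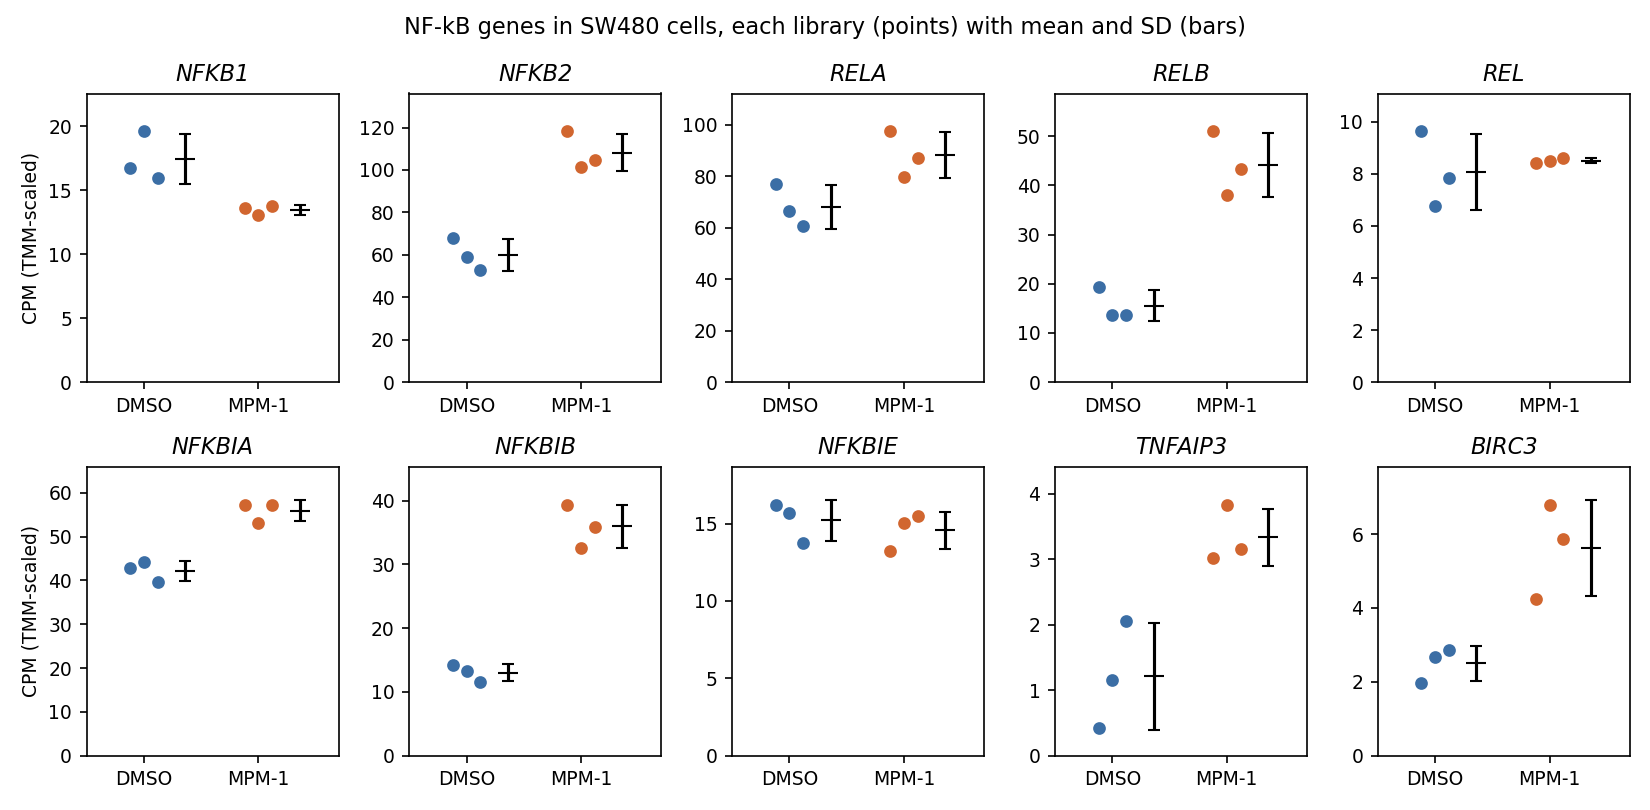
TMM-scaled CPM of the 10 genes in each of the 3 DMSO (blue) and 3 MPM-1 (orange) libraries, with the mean and SD as black bars and each axis starting at 0. RELB, NFKBIB, NFKB2, TNFAIP3 and BIRC3 have every MPM-1 library above every DMSO library, whereas REL and NFKBIE overlap.

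Among the subunits, RELB (ENSG00000104856, GRCh38 chromosome 19, 45001430 to 45038198) had the largest log2 fold change. RELB encodes the partner of p52 in the noncanonical pathway. It stood at 19.3, 13.7 and 13.7 CPM in the DMSO libraries and at 51.0, 38.0 and 43.4 CPM after MPM-1. The lowest MPM-1 library was thus above the highest DMSO library, and DMSO replicate 1 was the highest of its treatment. The log2 fold change was 1.51 ± 0.16 (SE; adjusted p = 4.77e-05), a 2.84-fold rise. Over 15 alternative settings it lay between 1.25 and 1.69 and passed in all 15.

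NFKB2 (ENSG00000077150, chromosome 10, 102394110 to 102402529), which encodes p100, the precursor of p52 and itself an inhibitor of RELB, rose as well. It was at 67.8, 58.9 and 52.8 CPM in DMSO and at 118, 101 and 105 CPM after MPM-1, with no overlap. Its log2 fold change of 0.86 ± 0.10 (SE; adjusted p = 0.000121), a 1.81-fold rise, passed in all 15 alternative settings. Both subunit genes of the noncanonical pathway therefore rose, and NFKB2 did so from a level that was already among the highest of the 10 genes.

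The 2 subunit genes of the canonical dimer went in opposite directions, by small amounts. NFKB1 (ENSG00000109320, chromosome 4, 102501329 to 102617302), the gene of p105 and p50, was at 16.7, 19.6 and 16.0 CPM in DMSO and at 13.6, 13.0 and 13.8 CPM after MPM-1. It fell by 0.37 on the log2 scale, with a standard error of 0.13 (adjusted p = 0.0303). The libraries did not overlap, but the call was lost without DMSO replicate 2 (log2 fold change -0.28, adjusted p = 0.128) and without MPM-1 replicate 1, 2 or 3 (-0.36, -0.33 and -0.37, adjusted p = 0.0546, 0.0870 and 0.0712). RELA (ENSG00000173039, chromosome 11, 65653596 to 65663094), the gene of the main activating subunit p65, was at 77.1, 66.5 and 60.6 CPM in DMSO and at 97.5, 79.8 and 86.9 CPM after MPM-1. Here MPM-1 replicate 2 was close to DMSO replicate 1. RELA rose by 0.37 ± 0.11 on the log2 scale (SE; adjusted p = 0.0152).

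The RELA call depended on the scaling. With scaling by library size alone its log2 fold change was 0.22 (adjusted p = 0.0742), while the median of all genes moved from -0.026 to -0.18. Measured from the median of all genes, RELA was 0.40 higher under both scalings. The call was also lost without DMSO replicate 2 (0.36, adjusted p = 0.0536), without DMSO replicate 3 (0.30, adjusted p = 0.0615) and with limma on FPKM, where it was 0.16 (adjusted p = 0.182 to 0.185). In the limma fit on FPKM plus 0.1 without a filter, RELA was 0.33 above the median of all genes. In all 15 alternative settings RELA was higher and NFKB1 lower after MPM-1.

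REL (ENSG00000162924, chromosome 2, 60881521 to 60931610), which encodes the c-Rel subunit known best from lymphocytes, was at 9.64, 6.76 and 7.83 CPM in DMSO and at 8.44, 8.49 and 8.61 CPM after MPM-1. The MPM-1 libraries lay within the range of the DMSO libraries. Its difference of 0.077 ± 0.17 on the log2 scale (SE; adjusted p = 0.730) was smaller than its error and turned negative in 3 of 12 alternative settings. REL shares 5702 bases on its own strand with AC010733.2, an annotated noncoding gene that is not among the genes analysed, so its count may hold reads from there.

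Of the 3 inhibitor genes, NFKBIB and NFKBIA rose and NFKBIE did not pass. NFKBIB (ENSG00000104825, chromosome 19, 38899700 to 38908893), which encodes IkB beta, rose from 14.3, 13.3 and 11.5 CPM in the DMSO libraries to 39.4, 32.6 and 35.9 CPM after MPM-1. Every MPM-1 library stood far above every DMSO library. This was a log2 fold change of 1.47 ± 0.12 (SE; adjusted p = 1.04e-05), a 2.76-fold rise, and it passed in all 15 alternative settings. NFKBIB overlaps SIRT2, on the opposite strand, by 163 bases, and SIRT2 itself had a 1.00-fold ratio between the treatments (adjusted p = 0.998).

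NFKBIA (ENSG00000100906, chromosome 14, 35401511 to 35404749) encodes IkB alpha, the inhibitor that NF-kB is known to induce most directly as a brake on itself. It was at 42.9, 44.1 and 39.7 CPM in DMSO and at 57.2, 53.1 and 57.3 CPM after MPM-1, a narrow spread in both treatments with no overlap. The log2 fold change was 0.40 ± 0.080 (SE; adjusted p = 0.00207), a 1.32-fold rise that passed in all 15 alternative settings. NFKBIE (ENSG00000146232, chromosome 6, 44258166 to 44265788), the gene of IkB epsilon, was at 16.2, 15.7 and 13.7 CPM in DMSO and at 13.2, 15.1 and 15.5 CPM after MPM-1. Its libraries overlapped, and its log2 fold change was -0.061 ± 0.13 (SE; adjusted p = 0.715).

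**Figure D3:**
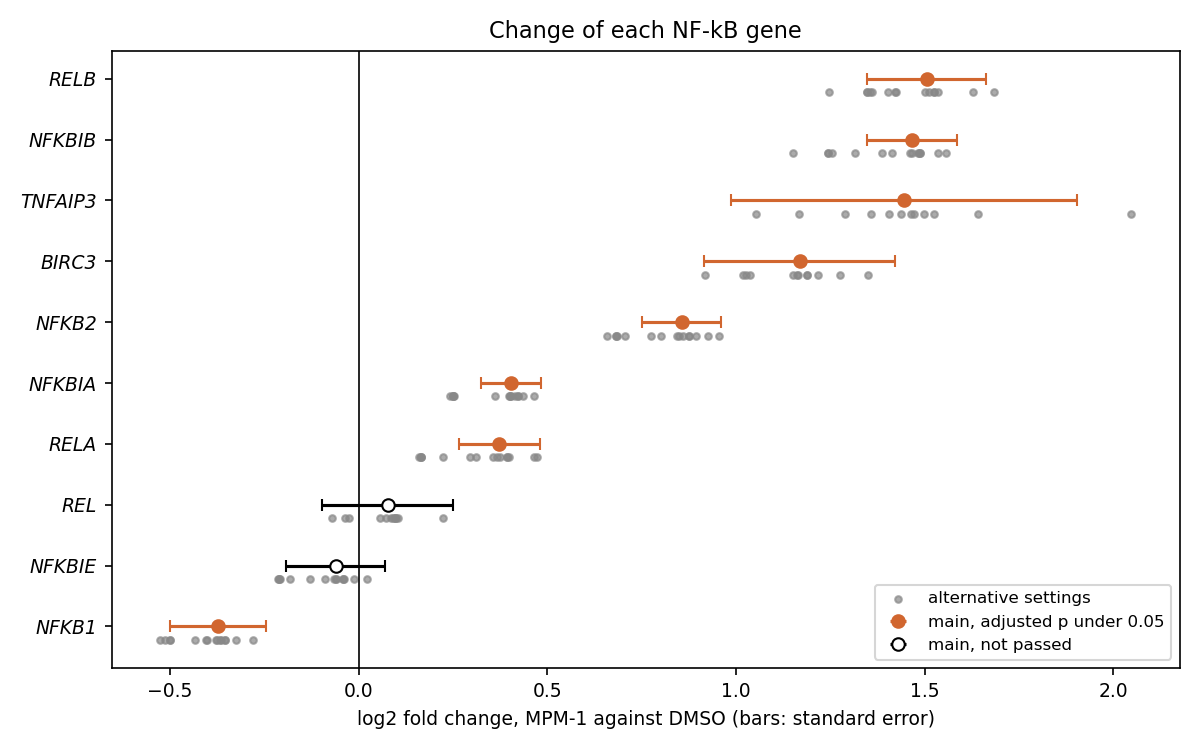
Log2 fold change of each gene, MPM-1 against DMSO, from edgeR's test with its standard error (large points, orange where the adjusted p was under 0.05, open where not), with the values under the alternative settings as small grey points below each. RELB, NFKBIB, TNFAIP3 and BIRC3 lie above 1, NFKB1 lies below 0, and the alternatives of REL and NFKBIE fall on both sides of 0.

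Both feedback genes rose from low levels. BIRC3 (ENSG00000023445, chromosome 11, 102317450 to 102339403) encodes cIAP2, a ubiquitin ligase that supports survival signaling from TNF receptors and restrains NIK. It was counted 65, 115 and 114 times in DMSO and 129, 209 and 197 times after MPM-1, or 1.97, 2.66 and 2.86 CPM against 4.23, 6.80 and 5.87 CPM. MPM-1 replicate 1 was the lowest of its treatment and still above DMSO. The log2 fold change was 1.17 ± 0.25 (SE; adjusted p = 0.00343), a 2.25-fold rise that passed in all 12 alternative settings in which the gene was tested, at an adjusted p of up to 0.0152.

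TNFAIP3 (ENSG00000118503, chromosome 6, 137867188 to 137883312) encodes A20, a ubiquitin-editing enzyme that shuts off signaling to IKK. It was counted 14, 50 and 82 times in DMSO and 92, 118 and 106 times after MPM-1, or 0.424, 1.16 and 2.06 CPM against 3.02, 3.84 and 3.16 CPM. The DMSO libraries differed widely among themselves, with DMSO replicate 1 far below the others, whereas the MPM-1 libraries were close together. After MPM-1 the log2 fold change was 1.45 ± 0.46 (SE; adjusted p = 0.0225), which was 1.05 without DMSO replicate 1 and 2.05 without DMSO replicate 3. The call was lost without DMSO replicate 2 (1.41, adjusted p = 0.0679) and without MPM-1 replicate 2 (1.36, adjusted p = 0.0526). TNFAIP3 overlaps the antisense gene AL357060.1 by 1046 bases, and whether the counting used strand is not given in the sources used here.

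To set the levels of the genes side by side, the FPKM of the deposited table were used, since these are scaled for transcript length. In DMSO the order by mean FPKM was NFKBIA at 27.7 ± 1.49, RELA at 24.2 ± 2.45, NFKB2 at 19.6 ± 1.78, NFKBIB at 7.41 ± 1.13, RELB at 7.11 ± 1.32, NFKBIE at 5.99 ± 0.453, NFKB1 at 4.40 ± 0.557, REL at 0.768 ± 0.0904, BIRC3 at 0.493 ± 0.0992 and TNFAIP3 at 0.261 ± 0.181 (SD, n = 3 libraries). NFKBIA and RELA were not separated, as their libraries overlapped, nor were NFKBIB and RELB, nor BIRC3 and TNFAIP3. The inhibitor IkB alpha and the subunits RELA and p100 thus had the most abundant transcripts of the 10 genes, and c-Rel and the feedback genes the least.

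After MPM-1 the order began with NFKBIA at 32.9 ± 0.836 FPKM, NFKB2 at 31.4 ± 2.47 and RELA at 27.1 ± 1.80. RELB at 18.2 ± 2.34 and NFKBIB at 17.6 ± 1.34 followed, and NFKBIE at 5.17 ± 0.503 and NFKB1 at 3.07 ± 0.0679 came after them (SD, n = 3 libraries). The last were BIRC3 at 1.04 ± 0.286, REL at 0.751 ± 0.0671 and TNFAIP3 at 0.644 ± 0.101. Compared with DMSO, NFKB2 stood above RELA and BIRC3 above REL. NFKBIA and NFKB2 were not separated, nor were RELB and NFKBIB, BIRC3 and REL, or REL and TNFAIP3.

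Ratios within a library do not depend on the scaling between libraries, and 6 pairs of genes were compared in this way. The deposited FPKM did not follow the counts exactly: REL had 8.44 and 8.49 CPM but 0.828 and 0.704 FPKM in MPM-1 replicates 1 and 2. The order of levels above has the same limit. With CPM instead, or without any 1 library, the log2 difference was 1.09 to 1.31 for NFKB2 to NFKB1 and 1.13 to 1.27 for RELB to RELA. The ratio of NFKB2 to NFKB1 was 5.18, 3.85 and 4.44 in the DMSO libraries and 11.3, 9.62 and 9.87 after MPM-1, 2.30-fold higher on average. The ratio of RELB to RELA was 0.322, 0.265 and 0.289 in DMSO and 0.710, 0.627 and 0.665 after MPM-1, 2.29-fold higher on average. In both pairs the ratio of the noncanonical to the canonical subunit gene was higher in every MPM-1 library than in any DMSO library. These are RNA levels, and the making of p52 from p100 and the activity of either pathway were not tested.

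The ratio of NFKBIA to NFKBIB was 3.30, 3.76 and 4.28 in DMSO and 1.74, 1.97 and 1.92 after MPM-1, or 0.498 of its former size. The ratio of NFKBIA to NFKBIE was 4.39, 4.68 and 4.81 in DMSO and 7.20, 5.88 and 6.15 after MPM-1. The libraries of the 2 treatments did not overlap in these 4 pairs, and p was 0.10 for each by a two-sided exact permutation test over libraries, the smallest value that 3 against 3 allows, or 0.15 after Benjamini-Hochberg adjustment over the 6 pairs. The 2 treatments did overlap for NFKBIA to RELA, at 1.02, 1.22 and 1.20 in DMSO and 1.14, 1.26 and 1.25 after MPM-1 (exact permutation p = 0.50). They also overlapped for REL to RELA, at 0.0319, 0.0281 and 0.0352 against 0.0285, 0.0276 and 0.0268 (exact permutation p = 0.20).

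**Figure D4:**
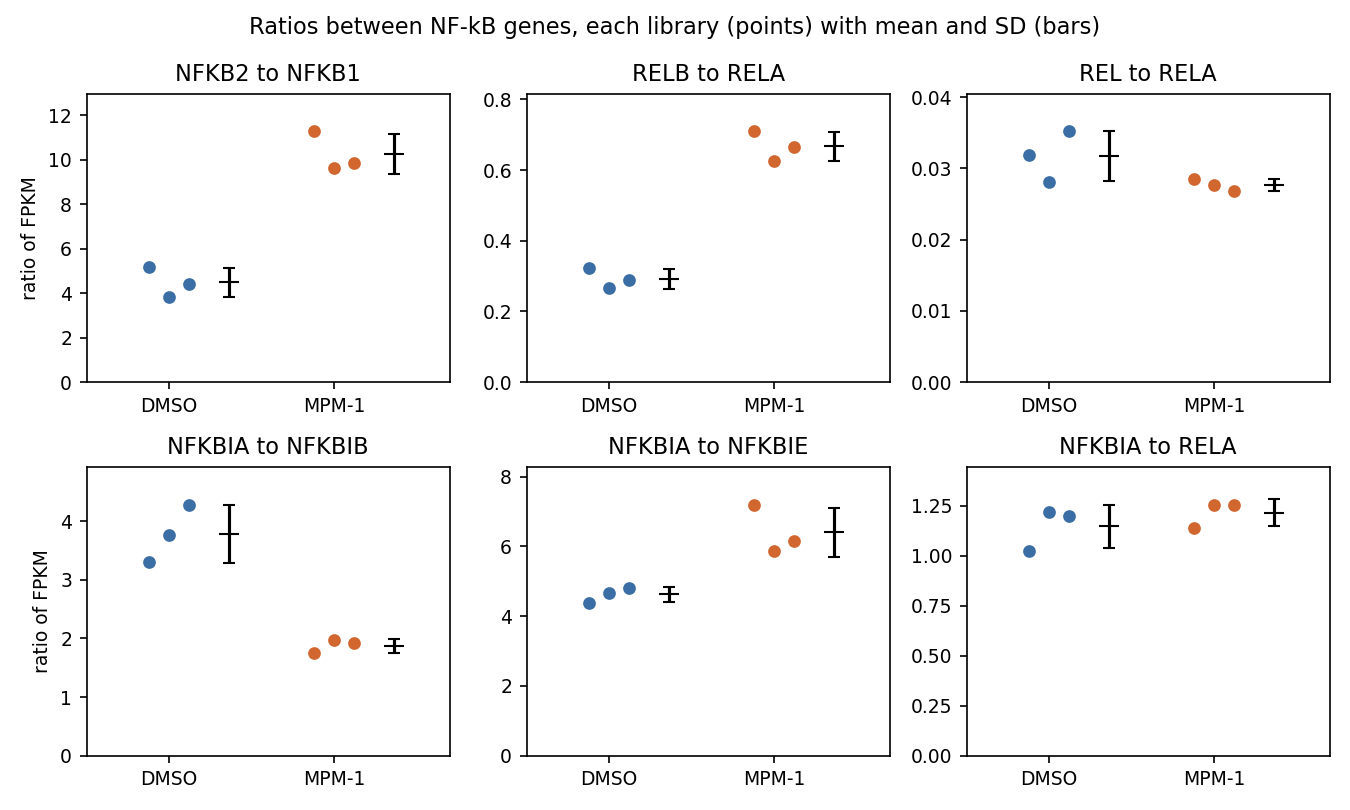
Ratio of the FPKM of 2 genes within each library, for 6 pairs, with DMSO in blue, MPM-1 in orange, the mean and SD as black bars and each axis starting at 0. NFKB2 to NFKB1 and RELB to RELA are higher in every MPM-1 library, NFKBIA to NFKBIB is lower in every one, and NFKBIA to RELA and REL to RELA overlap.

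The gene whose profile over the 6 libraries was closest to that of RELB was LZTS3, with a root-mean-square difference of 0.054 in centred log2 CPM. DNAJB2 followed at 0.073 and NewGene_73, which the files tie to no Ensembl gene, at 0.084. Their log2 fold changes were 1.60, 1.50 and 1.42. With 6 libraries in 2 treatments, a gene with a similar fold change comes close by that alone, and shared regulation with RELB was not tested. RELB was taken because its fitted log2 fold change of 1.51 was the highest of the 10, but NFKBIB at 1.47 and TNFAIP3 at 1.45 lay within its standard error. TNFAIP3 was above RELB without DMSO replicate 3 (2.05 against 1.42) and without MPM-1 replicate 1 (1.52, and NFKBIB 1.41, against 1.40), and NFKBIB was above it without DMSO replicate 2 (1.48 against 1.42).

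The other genes of the pathway were examined in lists written from general knowledge, with earlier results of these data known. Of 13 genes of the IKK and upstream kinases and their partners, 4 rose and 3 fell, shares near the 27.7% and 28.8% of all genes. The other 6 did not pass, and the median log2 fold change of the 13 was 0.17. CHUK, IKBKB and IKBKG, which encode the IKK complex itself, did not pass, with log2 fold changes of 0.063, 0.047 and 0.58. NIK, encoded by MAP3K14, did not pass either (0.36, adjusted p = 0.0550), and IKBKG was near the threshold too (adjusted p = 0.0700). With edgeR and DESeq2 size factors 5 of the 13 rose, when 3738 of all genes did. With the DESeq2 test 6 of the 13 rose, when 3777 of all genes did. The largest rises were in TAB3, an adaptor of the kinase TAK1, from 22.8 ± 1.38 to 35.9 ± 2.49 CPM, and in AZI2, an adaptor of TBK1, from 25.1 ± 2.88 to 38.8 ± 5.20 CPM. The largest falls were in MAP3K8, the kinase bound by p105, from 18.2 ± 1.17 to 10.2 ± 1.18 CPM, and in TAB1, from 15.3 ± 1.57 to 10.8 ± 1.17 CPM (SD, n = 3 libraries each). None of the 13 was a DEG.

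Of 24 receptor adaptors and ubiquitin ligases, 7 rose, a share near the 27.7% of all genes, 2 fell, against 28.8% of all genes, and 15 did not pass, with a median log2 fold change of 0.17. RBCK1, which encodes HOIL-1, a part of the linear ubiquitin ligase that recruits IKK, rose from 141 ± 10.6 to 433 ± 23.1 CPM (log2 fold change 1.62, adjusted p = 7.75e-07). IRAK2, a kinase of interleukin-1 and Toll-like receptor signaling, rose from 4.19 ± 0.342 to 10.8 ± 1.78 CPM (1.36, adjusted p = 0.000230). RIPK1, the kinase at TNF receptor 1, fell from 21.4 ± 1.38 to 13.9 ± 3.11 CPM, and TRAF3, which marks NIK for destruction together with the cIAP proteins, fell from 25.2 ± 1.85 to 20.1 ± 1.17 CPM (log2 fold change -0.32, adjusted p = 0.0234). BIRC2, the gene of cIAP1, had a log2 fold change of 0.094 and did not pass. Without DMSO replicate 2 or without MPM-1 replicate 3, 1 of the 24 fell, and with scaling by library size alone 4 did. Of all 12982 genes, 3740 fell in the main fit, 3078 without DMSO replicate 2 and 4871 with scaling by library size alone.

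Of 26 receptors and ligands listed, 15 were in the table, and of these 5 rose, 5 fell and 5 did not pass, where 27.7% of all genes rose and 28.8% fell, with a median log2 fold change of 0.026. TNF, LTA and IL1B were not among the genes analysed. IL1A, an alarm cytokine, had 9, 22 and 32 counts in DMSO and 34, 66 and 83 counts after MPM-1, and rose by a log2 fold change of 1.84 ± 0.46 (SE; adjusted p = 0.00737). TNFRSF12A, the receptor of TWEAK, rose from 277 ± 53.0 to 531 ± 37.1 CPM. LTB, a ligand of the lymphotoxin beta receptor that feeds the noncanonical pathway, had 82, 83 and 79 counts in DMSO and 0, 0 and 2 counts after MPM-1, at least 22.4-fold lower against a limit of 3 counts per library. NOD2, a sensor of bacterial wall fragments, fell from 1.66 ± 0.115 to 0.416 ± 0.202 CPM. LTBR, the receptor of LTB, had a log2 fold change of 0.51 and rose (adjusted p = 0.000524).

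Of 11 genes of other nuclear IkB proteins and cofactors, 5 rose, 1 fell and 5 did not pass, beside 27.7% and 28.8% of all genes, with a median log2 fold change of 0.18. NKAP, a nuclear protein first described as an activator of NF-kB, rose from 45.6 ± 3.54 to 117 ± 3.93 CPM. NFKBIZ, which encodes the nuclear IkB protein IkB zeta, rose from 5.51 ± 0.339 to 11.2 ± 1.96 CPM (log2 fold change 1.02, adjusted p = 0.00107). NKRF, a repressor that binds NF-kB sites, fell from 25.3 ± 1.36 to 15.2 ± 2.14 CPM. BCL3, the nuclear partner of p50 and p52, had a log2 fold change of 0.18 and did not pass.

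Of 40 genes listed as known targets of NF-kB, 30 were in the table, and of these 14 rose, 7 fell and 9 did not pass, set against 27.7% of all genes that rose and 28.8% that fell, with a median log2 fold change of 0.34. By the DEG rule 12 were higher and 5 lower, against 5.58% and 8.75% of all genes. The largest rises were in LCN2, an iron-binding defence protein, from 3.50 ± 0.718 to 558 ± 28.5 CPM (log2 fold change 7.32), and in CXCL8, the neutrophil attractant interleukin 8, from 6.86 ± 1.20 to 152 ± 25.4 CPM (4.48, adjusted p = 2.36e-07). The largest falls were in CXCL3, another neutrophil attractant, whose sequence is close enough to CXCL1 and CXCL2 for reads to be shared, from 5.75 ± 1.34 to 0.848 ± 0.470 CPM (-2.74, adjusted p = 0.000260), and in TNFAIP2, from 5.27 ± 0.416 to 0.804 ± 0.237 CPM (-2.70, adjusted p = 4.07e-05). SOD2, the mitochondrial superoxide dismutase and a common readout of the pathway, was at 92.9 ± 5.03 CPM in DMSO and 92.6 ± 3.33 CPM after MPM-1 and did not pass (log2 fold change -0.0037, adjusted p = 0.972).

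**Figure D5:**
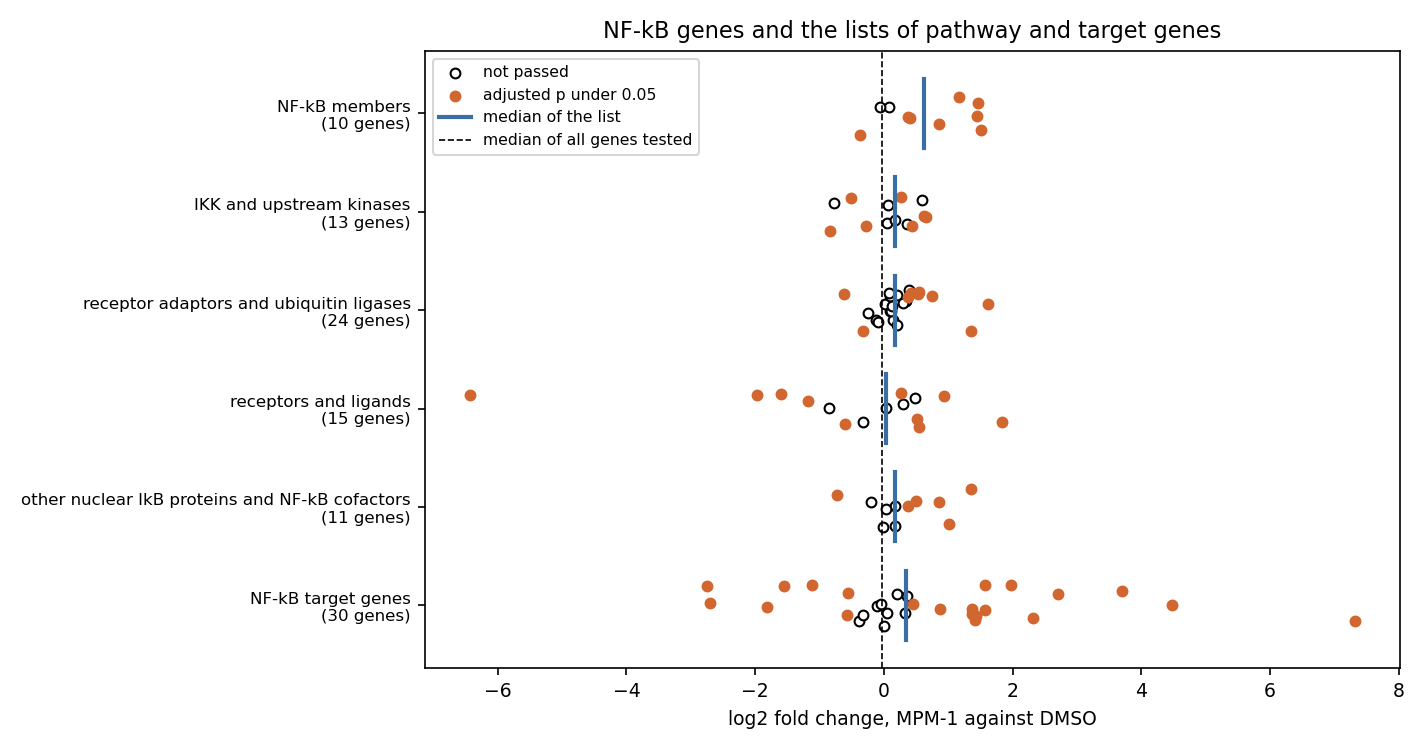
Log2 fold change, MPM-1 against DMSO, of each gene in the 10 NF-kB genes and in 5 lists of pathway and target genes, orange where the adjusted p was under 0.05 and open where not, with the median of each list in blue and that of all genes tested as a dashed line. The target genes spread from -2.74 to 7.32 and the receptors and ligands from -6.44 (LTB, a fitted value that depends on the prior count) to 1.84, while the 10 NF-kB genes lie between -0.37 and 1.51.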

How the data were processed

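RNA was sequenced from 3 DMSO and 3 MPM-1 libraries, which were grouped by their titles. The authors deposited 1 table with raw counts and FPKM (scaled for length and depth) per library. It also holds the authors' adjusted p-values and log2 fold changes, which were not used. The submitters' processing notes name HISAT2, DESeq2 and the mouse build mm10, although the identifiers are of human genes. Coordinates are from GENCODE release 29. The filter, annotation and strand setting are not given in the sources used here, and the lowest total of a gene was 115 counts.

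The genes and lists were chosen with earlier results of these data known. Counts were tested with edgeR 4.0.16 (quasi-likelihood, TMM) in R 4.3.3, checked on simulated data, with DESeq2 1.42.0 and limma 3.58.1 (log2 of FPKM plus 0.1, 1 or 0.01) as alternatives. Few genes changed in the simulated data, equally up and down, so that check does not cover scaling where many genes change, as here. Besides the 10 genes, the text names in each list the 2 largest rises and 2 largest falls that passed without overlap, the 3 profiles closest to RELB, and CHUK, IKBKB, IKBKG, MAP3K14, BIRC2, LTBR, BCL3, SOD2 and SIRT2, which were chosen after their values were seen. Libraries of 1 treatment differed by more than sampling noise (chi-square per gene 15.4 to 33.2).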

Additional observations from a re-analysis of the deposited data

How the results depend on the processing

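Every alternative left RELB, NFKB2, NFKBIA, NFKBIB and, where it was tested, BIRC3 higher after MPM-1 and past the threshold. No change that passed the test turned its direction. REL and NFKBIE, which did not pass, changed sign in some alternatives, REL down to -0.071 and NFKBIE up to 0.021. Scaling by library size alone put the median of all genes at -0.18 (log2), and there RELA was at 0.22. With that scaling 4 adaptors and ubiquitin ligases fell, as did 4871 of all 12982 genes. On FPKM with limma and a pseudocount of 0.1, 1 or 0.01, RELA was at 0.16, 0.159 and 0.165, and again at 0.164 with 0.1 and no filter. A mean of at least 1 FPKM removed REL, TNFAIP3 and BIRC3, and with RELA not passing, 4 of the 10 genes rose in each fit with that filter. Among the genes that this filter kept, 2345, 2358 and 2341 rose with a pseudocount of 0.1, 1 and 0.01, and 445, 351 and 454 were DEGs that rose. DEGs that fell numbered 716 with a pseudocount of 1. The filtered fits cover fewer genes than the 12982 of the main fit, so their counts, also those of the lists, are not set against its shares. In the 3 filtered fits 3 receptors and ligands rose and 3 fell (also 3 with a mean of at least 50 counts), and 4 target genes fell. In all 4 limma fits 4 adaptors fell and 3 cofactors rose. The causes were not tested beyond what the filters remove.

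Leaving out 1 library at a time, the log2 fold change was -0.43 to -0.28 for NFKB1, 0.30 to 0.47 for RELA and 1.05 to 2.05 for TNFAIP3. The DEGs among the 10 genes numbered 2 to 4. BIRC3 was no DEG in 4 of these 6 fits, though it passed the test in all 6. TNFAIP3 became a DEG without DMSO replicate 3 (2.05, adjusted p = 0.00544), which gave 4 DEGs. With the DESeq2 test on all libraries it was a DEG as well (1.47, adjusted p = 0.00318), again giving 4. The genes that fell numbered 0 to 1, and the adaptors that fell 1 to 2. The count of 0 arose without DMSO replicate 2 and without MPM-1 replicate 1, 2 or 3.

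The labels number the libraries 1 to 3 in both treatments. Deviations of libraries with the same number correlated at r = 0.021, 0.11 and -0.074, so the numbers were not taken to pair the libraries. With the number as a replicate block, 7 of the 10 genes rose and NFKB1 fell (log2 fold change -0.37, adjusted p = 0.0496), and TNFAIP3 was at 1.64, above RELB at 1.51. With 3 libraries per treatment, genes at a few CPM such as TNFAIP3 have wide errors.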
